A study of Mus musculus with 3 samples.

Results

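The annexins are proteins that bind acidic membrane lipids in the presence of calcium. The 8 genes described here, Anxa1, Anxa2, Anxa3, Anxa4, Anxa5, Anxa6, Anxa7 and Anxa11, were taken by symbol from a given list of annexins and are 8 of 55536 Ensembl genes measured and 8 of 12 annexin genes in the annotation. Levels were measured in 3 total RNA-seq libraries, labelled biological replicates 1, 2 and 3, from cytosolic RNA of macrophages grown from C57BL/6J bone marrow that had received 100 ng/ml Lipid A, the membrane anchor of bacterial lipopolysaccharide, for 10 minutes. The libraries form 1 group with 1 donor identifier and no untreated sample is analysed here, so no value below measures a response to Lipid A. Whether separate cultures or animals gave the replicates is not stated, and every test therefore measures only the spread between these samples, which may be technical. Sex and age were not recorded.

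Each annexin consists of a conserved core of repeated helical domains, which holds the calcium sites, and an N-terminal tail that differs between members and binds their protein partners. On rising calcium the core moves to membranes and can hold vesicles, granules or torn plasma membrane together. In macrophages annexins are known for phagosome and lysosome fusion, membrane repair, the binding of phosphatidylserine on dying cells and, for annexin A1, the limiting of inflammation.

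Counts over genes came to 33825547, 54667365 and 43176007 in replicates 1, 2 and 3. Levels are in TPM, a scale per transcript length with the same total in each library. That total includes non-coding RNAs, so the order of libraries for a gene can change with the scale. Anxa4 had 119, 126 and 127 TPM in replicates 1, 2 and 3. Rescaled over nuclear protein-coding genes, it had 502, 537 and 494.5 TPM. All 8 macrophage markers reached 1 TPM in each of the libraries, and their summed level was 7138 to 8180 TPM. Summed levels were 0.07 to 0.12 TPM for 6 stromal markers, 0.14 to 0.22 TPM for 3 T cell markers and 22.5 to 36.0 TPM for 8 neutrophil markers, of which Ly6g had no count. Summed levels of 5 markers of dividing cells were 67.5, 78.0 and 126 TPM in replicates 1, 2 and 3, and those of 3 nuclear RNAs were 648, 427 and 341 TPM. In bulk RNA, fewer cells of a type and less RNA per cell cannot be told apart.

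The stretches below are parts that some transcripts of Anxa6, Anxa7 and Anxa5 hold and others lack. For Anxa7 the transcript with the stretch, Anxa7-202, was minor, with a mean of 2.3% of the gene's TPM in the alignment-based quantification. They were copied from the M21 transcript sequences (mm10), all lie on minus strands and are written in the sense of the transcript. Capitals mark exon 21 of Anxa6-202 (chr11:54987051-54987068), exon 6 of Anxa7-202 (chr14:20467458-20467523) and the intron bases at the start of Anxa5-202 (chr3:36452283-36452328), each with 34 bases of the exon on either side where there is one. The line without capitals under each shows the junction of the transcript that lacks the stretch, Anxa6-201, Anxa7-207 and Anxa5-201 in turn.
Anxa6 with exon 21: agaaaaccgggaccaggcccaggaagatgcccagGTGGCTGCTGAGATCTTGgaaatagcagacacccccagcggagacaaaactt
Anxa6 without exon 21: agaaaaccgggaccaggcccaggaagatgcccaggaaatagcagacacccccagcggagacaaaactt
Anxa7 with exon 6: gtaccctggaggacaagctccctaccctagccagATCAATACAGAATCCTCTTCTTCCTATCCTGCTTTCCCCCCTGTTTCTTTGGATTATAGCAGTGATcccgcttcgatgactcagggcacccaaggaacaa
Anxa7 without exon 6: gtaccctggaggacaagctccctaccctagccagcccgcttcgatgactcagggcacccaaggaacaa
Anxa5 retained intron end: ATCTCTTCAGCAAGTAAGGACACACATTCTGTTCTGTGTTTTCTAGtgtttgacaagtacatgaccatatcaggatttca
Anxa5 spliced: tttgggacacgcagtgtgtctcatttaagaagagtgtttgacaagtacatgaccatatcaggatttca

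The summed TPM of the 8 annexins was 0.301%, 0.321% and 0.332% of that of all nuclear protein-coding genes in replicates 1, 2 and 3, or 0.318% ± 0.0159 (SD, n = 3). Each of the 8 was at 10 TPM or more in every library. Of all nuclear protein-coding genes, 41.6% reached the lower mark of 1 TPM in every library. The median of the 8 mean levels was 93.7 TPM, against 7.35 TPM for the 9374 nuclear protein-coding genes whose mean reached 1 TPM. The 8 were listed with earlier results of these data known. The annexins left out, Anxa8, Anxa9, Anxa10 and Anxa13, had means of 0 to 1.29 TPM, so these levels are a description. Anxa5 alone gave 27.0% ± 2.23 of the family's TPM and Anxa11 gave 2.52% ± 0.163 (SD, n = 3 each).

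Anxa5 (chr3:36448923-36475894) encodes the annexin whose tight binding to phosphatidylserine is used to stain dying cells. Its level was 199, 216 and 208 TPM in replicates 1, 2 and 3, with a mean of 207.7 ± 8.54 TPM (SD, n = 3). In this quantification it was the highest of the family in each library, and 98.5% of the expressed protein-coding genes lay below its mean.

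Anxa1 (chr19:20373428-20390944) encodes a glucocorticoid-induced protein that acts through formyl peptide receptors. Its level was 120, 138 and 193 TPM, with a mean of 150.3 ± 37.7 TPM (SD, n = 3). Replicate 3 stood above the other libraries, and the SD was the largest in the family.

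Anxa2 (chr9:69453620-69491795) encodes a protein that pairs with S100A10 at the plasma membrane and on endosomes. Its level was 110, 115 and 148 TPM, with a mean of 124 ± 20.2 TPM (SD, n = 3). Replicate 3 was again highest.
Anxa4 (chr6:86736840-86793584), a gene best known from epithelia, whose protein orders lipids on membranes, had 119, 126 and 127 TPM, with a mean of 124 ± 4.54 TPM (SD, n = 3). Its range lay within that of Anxa2.

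Anxa3 (chr5:96793339-96845966), whose protein is known from the granules of neutrophils, had 61.8, 60.3 and 68.2 TPM. Anxa6 (chr11:54979108-55033445), which encodes a duplicated annexin core and is known from endosomes and cholesterol transport, had 57.4, 54.9 and 56.3 TPM. Their values lay close together in all libraries without overlap.

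Anxa7 (chr14:20455260-20480133) encodes synexin, which has a long tail and aggregates granules. Its level was 27.4, 25.8 and 29.3 TPM. Anxa11 (chr14:25842156-25886804), whose long-tailed protein tethers RNA granules to lysosomes, was the lowest of the 8 in each library, at 16.7, 19.2 and 22.7 TPM.

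**Figure D1:**
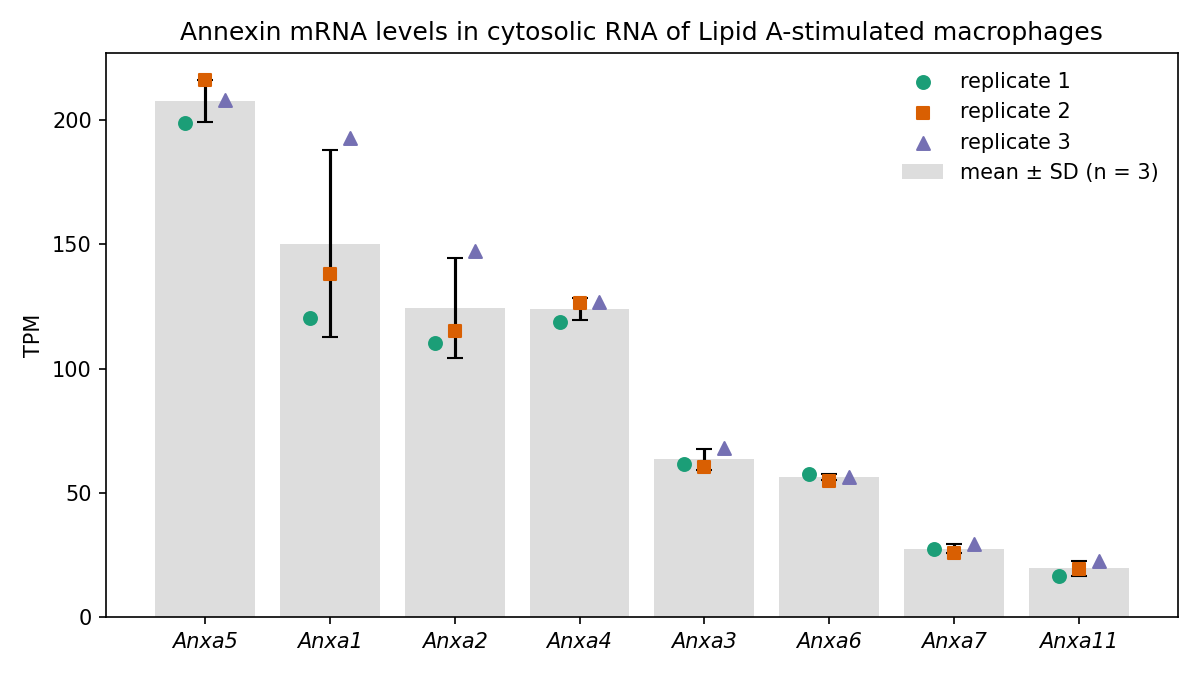
Levels of the 8 annexin genes in TPM. Points are the 3 libraries and bars are means with SD (n = 3). The levels are those of the first, alignment-based quantification. Anxa5 is highest and Anxa11 lowest in each library, and the points of Anxa1 and Anxa2 spread most.

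Of the other annexin genes, Anxa9, whose protein lacks working calcium sites, had 1.43, 1.04 and 1.40 TPM, from 153 to 174 counts. Anxa8, Anxa10 and Anxa13 had no count in any library. A count of 0, taken to allow up to 3 counts, limits these to 0.0558 TPM at most, the limit for Anxa13 in replicate 1; such limits cover counting error only.

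Genes were ordered by mean TPM over the same 3 libraries, which largely fixes the sign of the mean differences. Neighbours in that order were compared within each library on the log2(TPM + 1) scale. They were called separated where the difference had the same sign in all 3 libraries and exceeded its SD. By that rule 6 of 7 neighbouring pairs were separated. The two-sided exact sign-flip test cannot go below p = 0.25 with 3 libraries, which is the value for each of these pairs. The mean differences were 0.96 ± 0.09 for Anxa4 over Anxa3 and 1.00 ± 0.08 for Anxa6 over Anxa7 (SD, n = 3 each). They were smaller for Anxa7 over Anxa11, at 0.48 ± 0.18, for Anxa1 over Anxa2, at 0.26 ± 0.13, and for Anxa3 over Anxa6, at 0.17 ± 0.09 (SD, n = 3 each). Anxa2 and Anxa4 did not differ beyond their spread, with a difference of -0.01 ± 0.20 (SD, n = 3, exact p = 1.00), since Anxa4 was higher in replicates 1 and 2 and Anxa2 in replicate 3.

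The step from Anxa1 up to Anxa5 depended on the library and on the quantification. Anxa5 over Anxa1 was 0.72, 0.64 and 0.11 in replicates 1, 2 and 3, a mean of 0.49 ± 0.33 (SD, n = 3), so that the pair was nearly level in replicate 3. In the second quantification, made by the authors from the reads without alignments, the same difference was 0.28 ± 0.33 and the pair was not separated. There, on the scale of nuclear protein-coding genes, Anxa5 had 708, 762 and 693 TPM and Anxa1 had 495, 569 and 742 TPM in replicates 1, 2 and 3, so that Anxa1 was above Anxa5 in replicate 3. In the first quantification, Anxa5 over Anxa1 was 0.42 ± 0.43 without replicate 2 and was not separated either. Without replicate 1 the difference was 0.38 ± 0.38 and only just met the rule. Without replicate 3 it was 0.68 ± 0.05.

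Counts of all 8 annexins differed between the 3 libraries by more than counting error. The test was a chi-square test of the expected counts against library sizes scaled by TMM, a trimmed mean of log ratios between libraries, with Benjamini-Hochberg adjustment over all 13494 genes tested. It called 50.1% of all genes, and 81.2% of those with a summed count of 10000 or more, which all 8 annexins had, so the count of 8 is near what deeply counted genes show. The test covers counting error only and speaks of no condition. Adjusted p was 0.034 for Anxa3 and 0.0434 for Anxa7, and 1.24e-07 or less for the other annexins. Without replicate 2 or without replicate 3, 5 of the 8 were called, and Anxa1, Anxa2 and Anxa11 were called in each of these fits.

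In CPM, counts scaled to library sizes corrected by TMM, the highest library was 1.53 times the lowest for Anxa1, 1.28 times for Anxa11 and 1.27 times for Anxa2. For the other annexins it was 1.05 to 1.12 times. A ratio of 1.2 or more was found for these 3 of the 8 annexins and for 27.2% of 9872 genes at 1 TPM or more, so that the count is not far from that of all genes; this threshold was chosen with the values known. The count rested on single libraries. Without replicate 1 the ratios were 1.27 for Anxa1, 1.16 for Anxa2 and 1.08 for Anxa11, and without replicate 3 they were 1.19, 1.09 and 1.19, so that no annexin reached 1.2. Anxa1 had 320, 385 and 489 CPM, Anxa2 had 249, 272 and 317 CPM and Anxa11 had 67.7, 80.8 and 86.9 CPM in replicates 1, 2 and 3. All 3 genes were lowest in replicate 1 and highest in replicate 3.

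Anxa5 and Anxa4 had another pattern, with replicate 2 highest. Anxa5 had 481, 538 and 483 CPM, and Anxa4 had 376, 411 and 377 CPM, so that replicates 1 and 3 were nearly equal for both. Without replicate 2, neither gene was called. Anxa6, with 242, 240 and 224 CPM, was lowest in replicate 3. The median CV (SD over mean) of the 8 genes in CPM was 5.74%, against 6.19% for all genes at 1 TPM or more.

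Among the genes that differed at 1 TPM or more, 41.3% were highest in replicate 3, against 5 of the 8 annexins (4 with library totals not scaled by TMM). Replicate 3 also had the highest sum of the dividing-cell markers and the lowest sum of the nuclear RNAs. Malat1 made up most of the nuclear sum, with 597, 383 and 304 TPM in replicates 1, 2 and 3, while Xist, with 8.97, 2.09 and 3.02 TPM, was lowest in replicate 2. All 5 dividing-cell markers, Mki67, Top2a, Cdk1, Ccnb1 and Pcna, were highest in replicate 3, Mki67 with 2.91, 3.09 and 9.62 TPM in replicates 1, 2 and 3. The 8 neutrophil markers summed to 22.5, 36.0 and 33.7 TPM, lowest in replicate 1. S100a8, with 8.52, 13.8 and 13.1 TPM, and S100a9, with 13.1, 20.8 and 19.1 TPM, made up most of the sum. Ltf was lowest in replicate 3, with 0.56, 0.66 and 0.53 TPM. In CPM, Anxa1, Anxa2, Anxa3, Anxa4, Anxa5 and Anxa11 were lowest in replicate 1, Anxa7 in replicate 2 and Anxa6 in replicate 3. The part of these markers in the annexin differences was not tested.

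**Figure D2:**
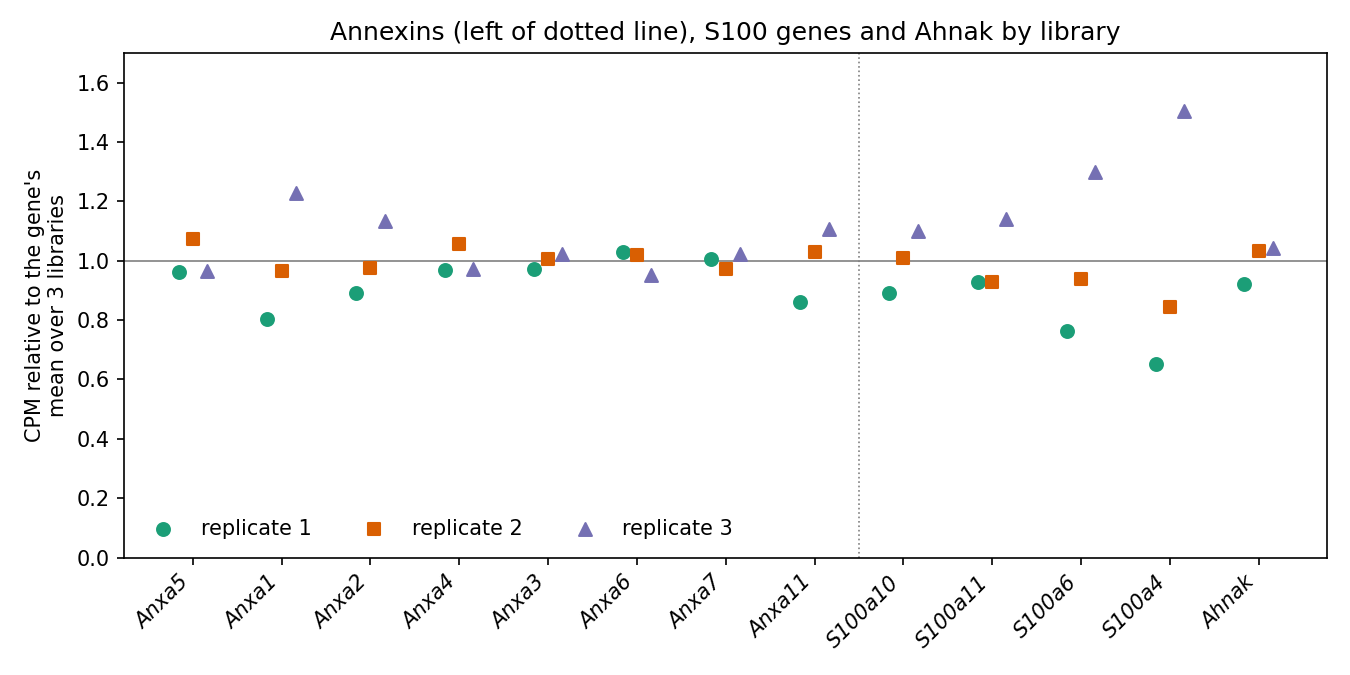
Levels by library relative to each gene's mean over the 3 libraries, in CPM scaled by TMM, for the 8 annexins and 5 partner genes. Anxa1 spans 0.805 to 1.23 and S100a4 0.652 to 1.5, both with replicate 1 lowest and replicate 3 highest, while Anxa3 and Anxa7 stay within 0.972 to 1.02.

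The genes of annexin partners came from a list of 18 known binding proteins, receptors and lipid scramblases. Of these, 12 reached 1 TPM in all 3 libraries and 5 in none, while 41.6% of the 22015 nuclear protein-coding genes reached 1 TPM in every library. The median of the 18 mean levels was 15.6 TPM, against 0.163 TPM over all nuclear protein-coding genes. The list holds genes known from macrophages, so its level is a description.

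S100 proteins bind the tails of annexins as dimers. S100a10, the partner of annexin A2, had 68.3, 70.5 and 86.1 TPM, and S100a11, the partner of annexin A1, had 66.1, 57.6 and 80.0 TPM in replicates 1, 2 and 3. S100a6, which binds annexins A2 and A11, had 41.5, 46.7 and 74.0 TPM, and S100a4, which binds annexin A2, had 48.8, 54.7 and 111 TPM. In CPM, all 4 S100 genes were highest in replicate 3, as were Anxa1, Anxa2, Anxa3, Anxa7 and Anxa11. The same held for 41.3% of all differing genes at 1 TPM or more.

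Ahnak, the giant scaffold that the annexin A2 and S100A10 complex binds, was the highest gene of the list with 145, 159 and 175 TPM. Pdcd6, which encodes the calcium sensor ALG-2 that binds annexins A7 and A11, had 23.2, 22.1 and 23.9 TPM. Sri, which encodes sorcin, a partner of annexin A7, had 36.1, 36.2 and 41.4 TPM. Of 15 partner genes with enough counts to test, 8 differed between libraries, close to the 50.1% of all genes, and 7 of these were highest in replicate 3, where 41.3% of all differing genes at 1 TPM or more were highest.

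The receptors and the proteolytic partners were low or had no count. Fpr1 and Fpr2, whose receptors bind annexin A1, had 0.13, 0.18 and 0.24 TPM and 0.41, 0.22 and 0.32 TPM, from 9 to 21 counts a library. Plg, the plasminogen gene, had no count, and Plat, the tissue plasminogen activator gene, had 0, 1 and 1 counts. Pla2g4a, which encodes a cytosolic phospholipase, had 1.77, 1.34 and 1.84 TPM.

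Scramblases expose phosphatidylserine, the ligand of annexin A5, and ferlins act beside annexins in membrane repair. The scramblase gene Ano6 had 27.1, 26.5 and 28.7 TPM with a CV of 0.51% in CPM, and 0.446% of the genes at 1 TPM or more had a lower CV. In the second quantification its highest library was 1.05 times the lowest. There the chi-square test called Ano6 as differing (adjusted p = 0.00285), as it did 58.9% of all genes. Plscr3 had 8.72, 7.62 and 7.96 TPM, Plscr1 3.54, 4.35 and 4.48 TPM, and Xkr8 0.79, 1.09 and 1.08 TPM. Of the ferlins, Myof (myoferlin) had 52.4, 51.9 and 60.6 TPM, while Dysf (dysferlin) had 0.04 TPM at most.

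**Figure D3:**
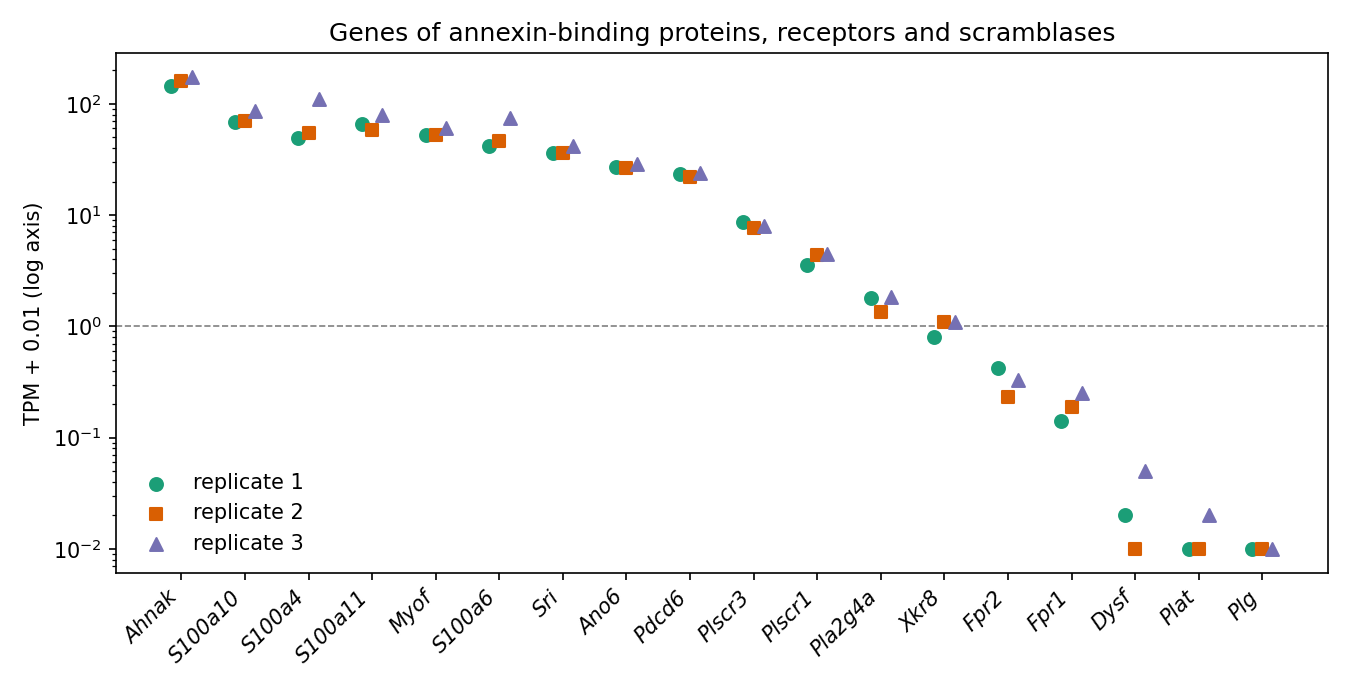
Levels of the 18 partner genes in TPM + 0.01 on a log axis, with 1 point a library and a dashed line at 1 TPM. Ahnak is highest at 145 to 175 TPM, and Fpr2, Fpr1, Dysf, Plat and Plg lie below the line in every library.

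The leading transcript, the one with the highest mean TPM in the alignment-based table, held 99.5% ± 0.224 of the gene's TPM for Anxa11, 99.4% ± 0.0996 for Anxa2, 98.3% ± 0.105 for Anxa1 and 95% ± 1.90 for Anxa3 (SD, n = 3 each). The share was 86.3% ± 1.36 for Anxa4-201, 82.3% ± 1.44 for Anxa5-201, 70.6% ± 3.02 for Anxa6-202 and 64.9% ± 0.784 for Anxa7-207. In the second quantification, Anxa3-201 held 90.8% ± 4.21, with 86.0% in replicate 1, and Anxa1-201 held 94.9% ± 1.65 (SD, n = 3 each). There Anxa4-201 held 77.5% ± 2.61 and Anxa7-207 held 53.8% ± 2.69, both less than in the first, while Anxa5-201 held 97.6% ± 2.38 (SD, n = 3 each).

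**Figure D4:**
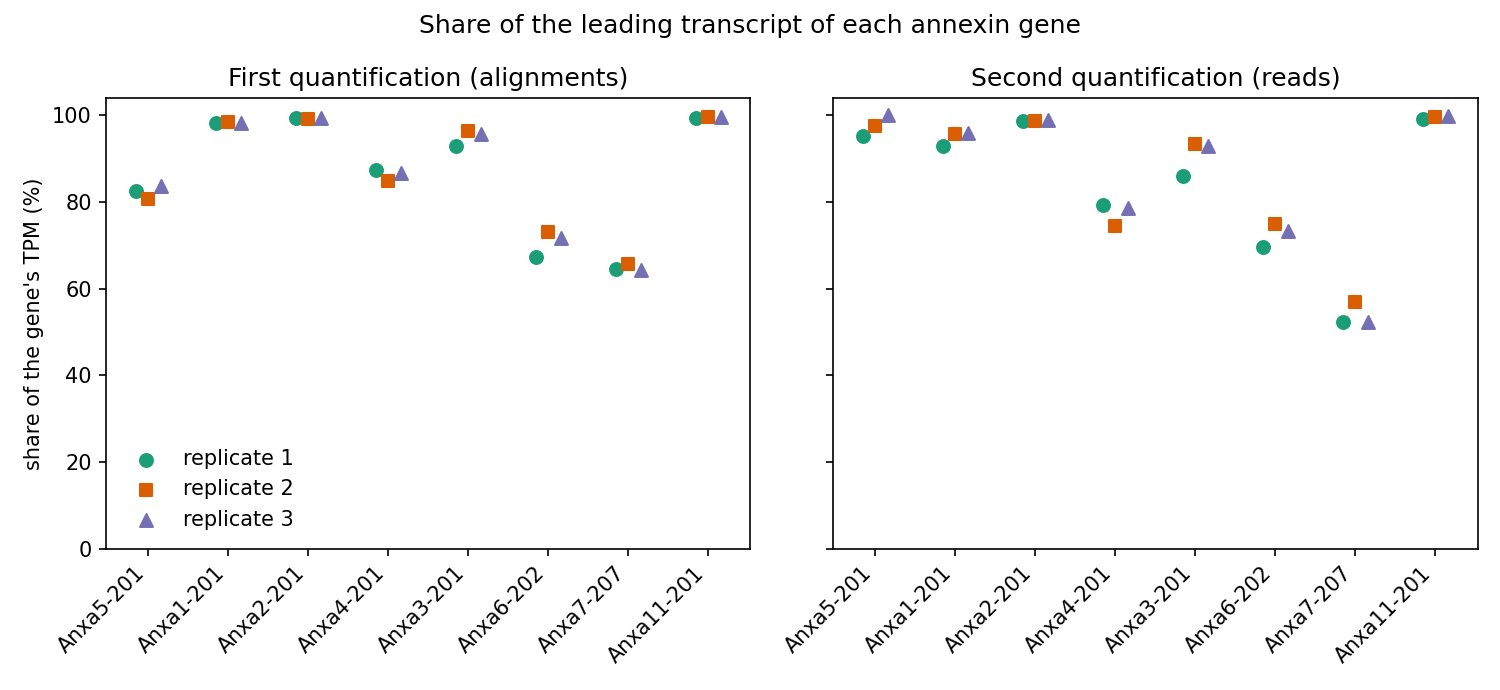
Share of the leading transcript in its gene's TPM, in percent, with 1 point a library. The left panel is the first and the right panel the second quantification. Anxa2-201 and Anxa11-201 are near the top in both, and Anxa5-201 lies higher and Anxa7-207 lower in the second.

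Anxa6 was expressed as a pair of transcripts that differ by exon 21 of Anxa6-202, which adds 18 bases, or 6 codons, to the second annexin core (first pair of sequences above). Among the transcripts with and without it, the exon was present in 67.6%, 73.2% and 71.8% of the TPM in replicates 1, 2 and 3, a mean of 70.9% ± 2.89 (SD, n = 3). The second quantification gave 70.3%, 75.2% and 73.5%. The authors' posterior SD of the counts of Anxa6-202 was 1.28% to 1.58% of the counts of the pair. That SD covers the assignment of reads only, and the second quantification was made from the same reads.

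Anxa7 is known for a cassette exon that is used in muscle and brain and skipped in most other tissues. This exon, exon 6 of Anxa7-202, has 66 bases, or 22 codons, and lies in the tail (second pair of sequences). It was present in 2.53%, 2.40% and 2.19% of the TPM of Anxa7-201, Anxa7-202 and Anxa7-207, a mean of 2.37% ± 0.173 (SD, n = 3), and in 2.89% ± 0.215 in the second quantification. Posterior SDs were 0.524% to 0.673%, more than the difference between any libraries, and transcripts without the exon held nearly all of the TPM.

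The main transcripts of Anxa7 differ at their starts and share all coding bases. The first exon lies at chr14:20479780-20479911 in Anxa7-207 and at chr14:20479895-20480133 in Anxa7-201. Anxa7-207 held 64.9% ± 0.784 of the gene's TPM (SD, n = 3), and Anxa7-201 held 29.6%, 28.6% and 31.8% in replicates 1, 2 and 3. In the second quantification Anxa7-207 held 53.8% ± 2.69 and Anxa7-201 held 37.9% ± 3.75 (SD, n = 3 each). Anxa4-201 and Anxa4-202 likewise share their coding bases and begin at different first exons, at chr6:86793509-86793584 and chr6:86765762-86765910, and Anxa4-202 held 4.46% ± 0.387 of the TPM (SD, n = 3). The shorter coding transcript Anxa4-208 held 10.8% ± 2.96 in the second quantification and 5.18% ± 0.864 in the first (SD, n = 3 each).

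Anxa5 was the member on which the quantifications differed most. Anxa5-202, annotated as a retained intron, held 4.65%, 2.41% and 0% of the gene's TPM in the second quantification, against 17.35%, 19.1% and 16.4% in the first. Of its 567 bases, 521 lie in exons of Anxa5-201, and the other 46 are the intron bases shown in capitals in the last pair of sequences. Of its 537 stretches of 31 bases, 44 are absent from Anxa5-201.

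**Figure D5:**
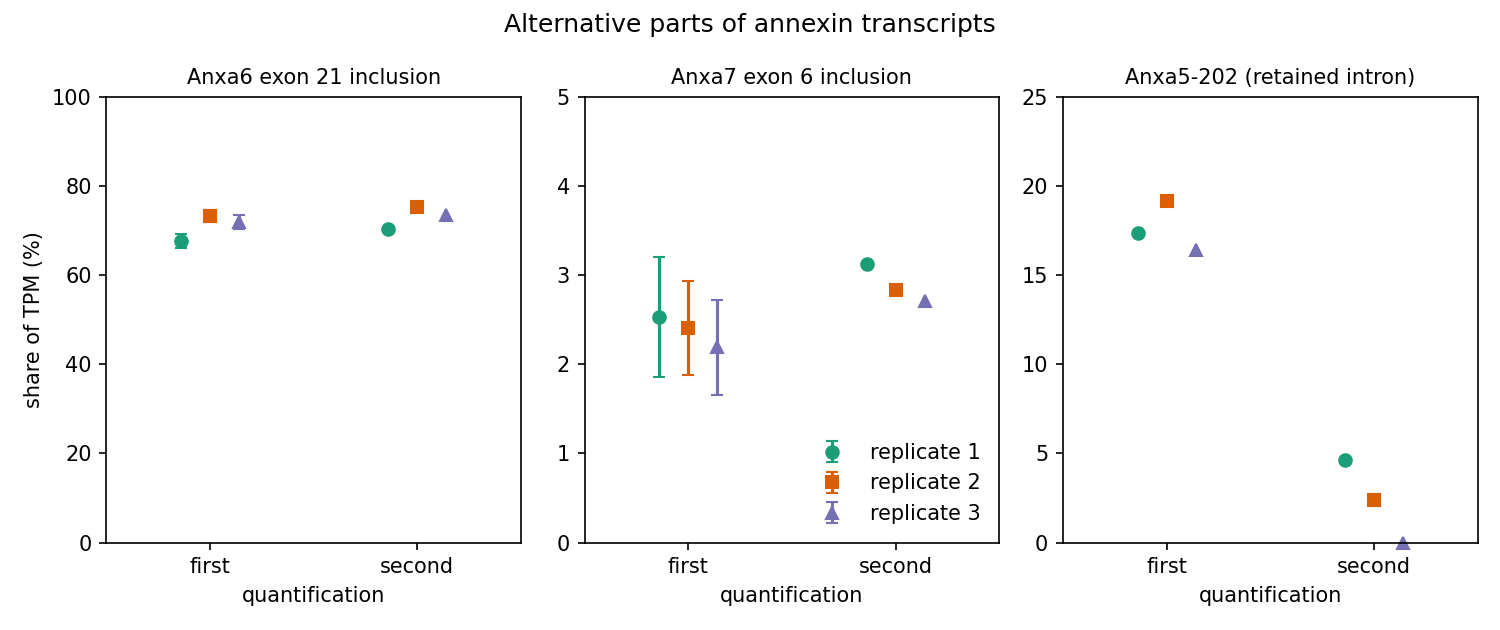
Share of TPM, in percent, of transcripts with exon 21 of Anxa6, with exon 6 of Anxa7 and of Anxa5-202, in both quantifications. Each point is 1 library. Error bars are drawn for the exons in the first quantification only. They are the authors' posterior SD as a percent of the counts compared. No bars are drawn for Anxa5-202. Its posterior SD was 52.1, 75.4 and 62.9 on counts of 727, 1473 and 879 in replicates 1, 2 and 3. Exon 21 stays between 67.6% and 75.2%, exon 6 between 2.19% and 3.13%, and Anxa5-202 is at 16.4% to 19.1% in the first and at 0% to 4.65% in the second quantification.

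With each quantification rescaled to nuclear protein-coding genes, the log2 ratio of the second over the first was -0.25 ± 0.02 for Anxa5 (SD, n = 3) and between -0.05 and 0.08 for the other annexins. On this scale, none of the 8 annexins differed by more than 1.5-fold, as 2.67% of 9292 protein-coding genes at 5 TPM or more did. For Anxa5-201 alone the ratio was 0.00 ± 0.04 (SD, n = 3). On that scale, Anxa5-201 had 695, 741 and 679 TPM and Anxa1-201 had 500, 577 and 740 TPM in replicates 1, 2 and 3 of the first quantification. Counted as coding transcripts, Anxa1 was thus above Anxa5 in replicate 3 and below it in replicates 1 and 2. Without the rescaling, the mean TPM of each annexin was lower in the second quantification than in the first. It was 82.1 against 207.7 TPM for Anxa5 and 9.34 against 19.5 TPM for Anxa11.

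The genes share a plan of coding exons. Coding exons 3 to 11 of Anxa5-201 have 95, 114, 91, 80, 57, 94, 96, 59 and 123 bases, 809 in all. A run of coding exons of these lengths, in this order, was found in 6 of 22568 gene symbols with a coding transcript in the M21 annotation, which are Anxa1, Anxa3, Anxa4, Anxa5, Anxa6 and Anxa11. Anxa2 has the same run with 60 bases in place of 57. Anxa6 has it in its first core, and in its second core the place of 57 bases is taken by 54 bases and by the 18 bases of exon 21, the exon that is present or absent. Anxa7-207 has no such run.

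Shared sequence touched mainly Anxa11. No stretch of 31 bases in the leading transcripts of Anxa1, Anxa2, Anxa3, Anxa5, Anxa6 and Anxa7 occurs in a transcript of another gene. For Anxa4 it was 2.43%, shared with the antisense RNA gene Gm44036, which had 1, 0 and 0 counts. For Anxa11 it was 30.3%, shared with the pseudogenes Gm2260 and Gm2274 and the antisense gene Anxa11os. Gm2260 had 50, 58 and 90 counts and Anxa11os 7, 3 and 1, against 2381, 4270 and 3733 for Anxa11, and the authors' posterior SD of the Anxa11 count was 0.946% of it at most. Strandedness is not given in the sources used here, so reads of antisense genes cannot be told apart from those of the annexins.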

How the data were processed

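The authors deposited, per library, a gene table and a transcript table with expected counts and TPM derived from transcriptome alignments (assembly mm10, annotation M21), per the file headers, and another transcript table with estimated counts and TPM derived from the reads directly. The posterior SD that the authors deposited beside each expected count measures the doubt in assigning reads. The names of aligner and quantifiers and the strandedness were not given in the sources used here. Symbols, coordinates and sequences came from M21.

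Entries that are no Ensembl gene, 0.141% to 0.449% of counts, entered neither library sizes nor tests, though the TPM scale includes them. Expected counts were rounded to whole numbers. Library sizes were scaled with TMM in edgeR 4.0.16 (R 4.3.3), and with DESeq2 1.42.0 as an alternative. A Pearson chi-square test per gene with a summed count of 30 or more, adjusted by Benjamini-Hochberg at 0.05, compared the 3 libraries. It was tried on simulated counts that held counting error and some changed genes. Those counts had no further spread between libraries, so the trial does not cover such spread. With 1 group, no count model of conditions could be used. The common biological coefficient of variation was 14.4%. Fold differences on log2(TPM + 1) understate changes of low genes. The members, partner and marker lists were chosen with earlier results of these data known. The text names the members, the other annexins, the partner list, and the 3 genes nearest in level to the highest and to the most variable member.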

Additional observations from a re-analysis of the deposited data

How the results depend on the processing

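No separated pair changed the sign of its mean difference under the alternatives run. Anxa2 over Anxa4, which was not separated, was -0.01 on the log2 scale with all libraries, 0.04 without replicate 1 and 0.06 without replicate 2. In the second quantification Anxa6 was highest in replicate 2 rather than 1 and Anxa7 lowest in replicate 1 rather than 2. With 1 replicate left out at a time, 5 to 7 of the 8 annexins were called as differing between libraries. Without replicate 1, Anxa3 was lost. Without replicate 2, 5 were called and Anxa4, Anxa5 and Anxa7 were lost, and without replicate 3, 5 were called and Anxa3, Anxa6 and Anxa7 were lost. These fits hold fewer samples. Over all genes the number of calls was 6765. It was 9350 in the second quantification, 7010 with library totals without TMM, 6946 with no filter and 6704 with DESeq2 size factors. With a replicate left out it was 3514 to 5358. Among genes of 10000 or more summed counts it was 1992, an alternative chosen after seeing the data in which fewer genes were tested. DESeq2 size factors gave 7 annexins, without Anxa3, and no filter gave 6, without Anxa3 and Anxa7; library totals without TMM and the second quantification gave 8. The median share of the leading transcript was 92.9% in the second quantification, against 90.7% in the first. The share of the gene was lower in the second for Anxa1, Anxa2, Anxa3, Anxa4 and Anxa7. It was higher for Anxa5, at 97.6% against 82.3%, for Anxa6, at 72.7% against 70.6%, and for Anxa11, at 99.57% against 99.54%. The cause of these differences was not tested. Over the alternatives run for each, 5 to 6 pairs were separated, the annexin share of TPM was 0.304% to 0.327%, and 11 to 13 partner genes reached 1 TPM. With levels rescaled to nuclear protein-coding genes, 0 annexins were beyond 1.5-fold between quantifications. No paired analysis was possible because there is 1 group. The 3 libraries limit every SD, and the depth limits Anxa9 and the receptor genes, whose counts are few.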

Other observations

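By the Euclidean distance of log2(TPM + 1) over the 3 libraries, among 22014 protein-coding genes, the nearest to Anxa5 were Npc2, a lysosomal cholesterol carrier, at 0.077, the ribosomal protein gene Rpl18 at 0.097 and the myosin gene Myo5a at 0.098. The nearest to Anxa1 were Hsp90b1, an endoplasmic reticulum chaperone, at 0.166, Ifi27l2a at 0.195 and Cd300ld3 at 0.25. Hsp90b1 had 129, 138 and 175 TPM in replicates 1, 2 and 3, against 120, 138 and 193 TPM for Anxa1. The measure rests on 3 libraries and says only that levels were alike.

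Retained-intron transcripts of Anxa3 held 3.38%, 1.11% and 1.95% of the gene's TPM and those of Anxa7 held 3.43%, 3.06% and 1.71% in replicates 1, 2 and 3 of the first quantification. The share was highest in replicate 1 for Anxa1, Anxa2, Anxa3, Anxa4, Anxa7 and Anxa11. For Anxa5, which had the largest share, it was highest in replicate 2, at 17.35%, 19.1% and 16.4%. Anxa6 has no such transcript in the annotation. The differences were not tested. Some of these shares rest on few counts. Of the 1.1% for Anxa1 in replicate 1, 0.756% came from Anxa1-205, with 1 count. The retained-intron transcripts of Anxa11, Anxa11-203 and Anxa11-204, each had 3 to 13 counts a library.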
